A study of Mus musculus with 4 samples.

Results

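The transcripts described here encode the nuclear effectors of the Hippo pathway and a few of their best known targets. They are the coactivators Yap1 and Wwtr1 (the gene of Taz), their DNA-binding partners Tead1, Tead2, Tead3 and Tead4, and the target genes Ctgf, Cyr61, Ankrd1 and Amotl2. These 10 genes were chosen by name from the 48425 genes of the deposited count table, and all 10 had a row there. RNA was sequenced from primary peritoneal mesothelial cells, 1 library for each of 4 C57BL/6 mice that were 10 weeks old. All 4 are labelled WT (wild type). The cells were detached inside the peritoneal cavity with 0.25% trypsin and EDTA for 20 min at 37 °C, and those negative for CD45 and positive for podoplanin and GPM6a were sorted into serum-containing medium. All 4 animals form 1 untreated group, freshly isolated and described as homeostasis, so there is no contrast between conditions and each result is a level, a difference between genes within an animal, or a difference between animals. The labels give no sex, no collection time and no batch.

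The Hippo pathway is a kinase cascade that restrains Yap and Taz. The kinases Mst1 and Mst2 (genes Stk4 and Stk3) activate Lats1 and Lats2, which phosphorylate Yap and Taz so that they are held in the cytoplasm or degraded. Dephosphorylated Yap and Taz enter the nucleus and bind Tead factors, which recognise the sequence CATTCC, and induce genes such as Ctgf, Cyr61, Ankrd1 and Amotl2. Detachment, cell shape, actin tension and serum are all known inputs of this pathway. Phosphorylation and location of the proteins are not read by RNA.

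The sequence upstream of Cyr61 is shown because Cyr61 was by far the most abundant member and its promoter holds the Tead motif. Promoter windows are those of RefSeq on GRCm38.p6, read 5′ to 3′ on the strand of the gene, and the 250 bases before the annotated start were searched for CATTCC on both strands (GGAATG when it lies on the other strand). The window of Cyr61 is chr3:145649986-145650235 on the minus strand, and capitals mark the motif, whose first base lies 103 bases before the start.
Cyr61: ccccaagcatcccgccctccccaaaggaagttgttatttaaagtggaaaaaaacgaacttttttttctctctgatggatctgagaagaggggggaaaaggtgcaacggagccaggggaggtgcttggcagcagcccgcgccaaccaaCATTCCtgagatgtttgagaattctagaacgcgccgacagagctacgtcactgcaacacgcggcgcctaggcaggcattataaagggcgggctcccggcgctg

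Windows were found for 7 members, and 6 of the 7 held the motif in at least 1 window, against 14.4% of the 27025 genes in the table. By window, 8 of the 10 member windows held it, with the same Wwtr1 site counted from 2 starts, against 12.6% of all 32851 windows, and 1.02% of all windows held it at least 2 times. The sites of the other targets and of the coactivators are shown as 30 bases each, for comparison of their flanks, with the motif in capitals. They lie at chr9:102717727-102717756 on the plus strand for Amotl2, at chr19:36120037-36120066 and chr19:36119950-36119979 on the minus strand for Ankrd1, at chr9:8004720-8004749 on the minus strand for Yap1 and at chr3:57576029-57576058 on the minus strand for Wwtr1.
Amotl2: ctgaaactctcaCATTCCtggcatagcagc
Ankrd1 far site: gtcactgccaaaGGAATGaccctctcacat
Ankrd1 near site: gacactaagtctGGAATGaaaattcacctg
Yap1: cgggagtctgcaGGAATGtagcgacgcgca
Wwtr1: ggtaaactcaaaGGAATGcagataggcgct

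The motif began 65 bases before the start in Amotl2, at 210 and 123 bases in Ankrd1, at 141 bases in Yap1, and at 170 or 136 bases in Wwtr1 depending on which of its annotated starts is used. Tead3 held 3 motifs over its 3 windows. A close pair of them is shown, at chr17:28350697-28350726 on the minus strand, where the capitals mark the motif nearer to the start and the other lies upstream of it in the same run.
Tead3: gctcattccgtaCATTCCggccatccccct
The window of Tead2 held no match. All these starts are those of RefSeq, while the gene spans given below are those of GENCODE M21. By those spans the printed sites of Amotl2, Ankrd1 and Tead3 lie inside the gene and not before it. A match describes these letters and is not evidence of binding.

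The libraries held 4090224 to 4569578 estimated counts, and levels below are CPM, the estimated counts per 1000000 of the column total. All 12 mesothelial marker genes lay above 1 CPM, with a summed level of 16001 to 17934 CPM, led by Upk3b at 4135 ± 236 CPM (SD, n = 4). These markers include Pdpn and Gpm6a, whose products were used for the sort. Of the 8 fibroblast markers 7 lay above 1 CPM (all but Pi16), none was at 0, and their summed level was 14037 to 20940 CPM. Of the 8 smooth muscle and pericyte markers 5 lay above 1 CPM, with a sum of 114 to 195 CPM and Lmod1 at 0. Blood endothelial markers passed in 2 of 6 (Kdr and Tek, the latter not without animal 4; Cdh5 and Emcn at 0), with a sum of 35.6 to 68.7 CPM. Leukocyte markers passed in 1 of 7 (Csf1r, with Itgam at 0), with a sum of 30.0 to 47.6 CPM, and Lyz2 passed as well without animal 4. Most of that sum was Csf1r, at 33.2, 27.7, 39.4 and 37.7 CPM in animals 1 to 4. Animal 1 held 14.0 of the 14.8 counts of Ptprc (the gene of CD45), 25.9 of 27.8 of Cd79a and 26.2 of 40.0 of Lyz2. Cd3e and Adgre1 were near 0 in every animal. None of the 7 skeletal and heart muscle genes passed in edgeR, at an adjusted or an unadjusted p under 0.05, 0 passed in DESeq2 and 1 in limma with voom weights. In bulk RNA, fewer cells of a type and less RNA per cell cannot be told apart.

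Of the 10 members, 7 lay above 1 CPM, against 24.7% of all genes in the table. Each gene's level was tested against 1 CPM by the quasi-likelihood F test of edgeR (one-sided), and p-values were adjusted by Benjamini-Hochberg across the 48425 genes. Yap1, Wwtr1, Tead1, Tead3, Ctgf, Cyr61 and Amotl2 passed, with adjusted p from 1.19e-43 (Cyr61) to 3.87e-10 (Tead3). Tead2 (adjusted p = 0.997), Tead4 (adjusted p = 0.894) and Ankrd1 (adjusted p = 0.997) did not pass. Against a level of 5 CPM, which 19.1% of all genes exceeded, 6 members passed, since Tead3 at 7.13 CPM no longer did (adjusted p = 0.294). The median of the mean CPM was 26.9 over the 10 members and 0 over all genes, of which 25489 had no count in any animal. It was 35.9 over the 8792 genes with a mean of at least 10 CPM, a set without Tead2, Tead3, Tead4 and Ankrd1.

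**Figure D1:**
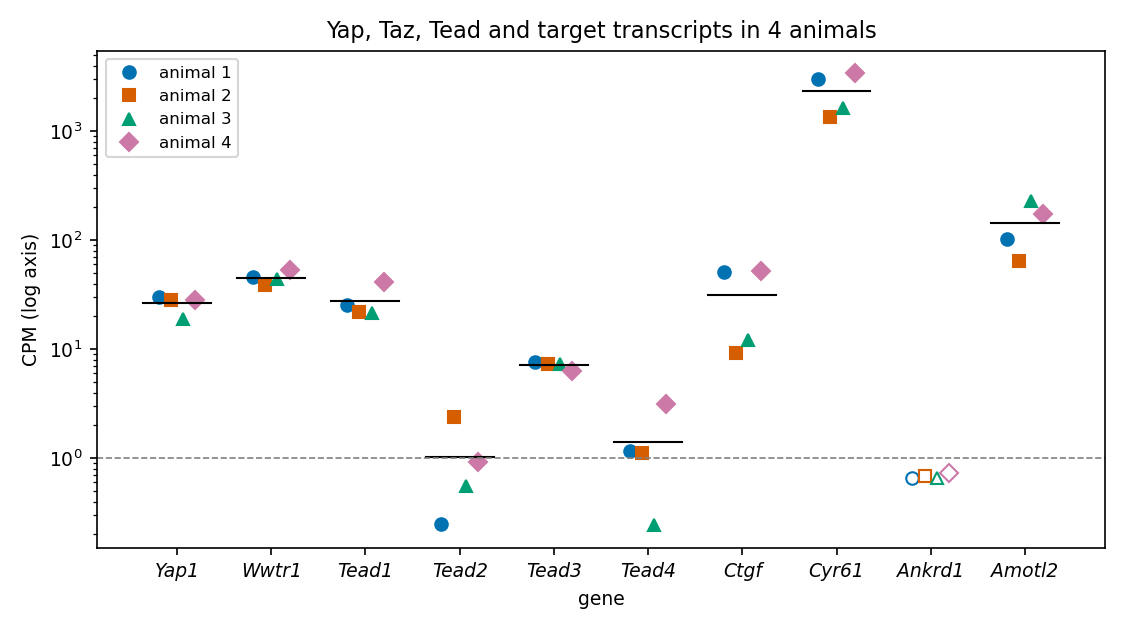
CPM of the 10 genes in each of 4 animals on a log axis, with the mean as a bar and the tested level of 1 CPM dashed; open symbols for Ankrd1 mark the limit that 0 counts allow (0.657 to 0.733 CPM), not a measured value. Cyr61 lies between 1337 and 3397 CPM, and the 4 values of Ctgf span 9.25 to 52.4 CPM while those of Tead3 span 6.28 to 7.62 CPM.

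Levels of different genes were compared per kilobase of transcript, using the mean length of the gene's protein-coding transcripts in GENCODE M21, scaled to a sum of 1000000 in each library. On that scale the order was Cyr61 (1560 ± 664), Amotl2 (112 ± 58.5), Ctgf (24.0 ± 18.1), Wwtr1 (13.3 ± 1.72), Tead1 (12.6 ± 4.17), Yap1 (11.2 ± 2.07), Tead3 (4.10 ± 0.335), Tead4 (1.26 ± 1.09) and Tead2 (1.19 ± 1.11), with Ankrd1 at 0. Differences between neighbours in this order, as log2 within an animal with 0.5 CPM added, were 3.85 ± 0.88 from Cyr61 to Amotl2 and 2.43 ± 1.37 from Amotl2 to Ctgf, in 4 of 4 animals each. From Ctgf to Wwtr1 (0.48 ± 1.14), from Wwtr1 to Tead1 (0.11 ± 0.27) and from Tead1 to Yap1 (0.13 ± 0.41) the difference was smaller than its SD over animals, so these 4 genes could not be ordered by the mean coding length. Yap1 stood above Tead3 by 1.37 ± 0.32 and Tead3 above Tead4 by 1.59 ± 1.02, in 4 of 4 animals each. Tead4 and Tead2 were not separable, and the sign of their difference was opposite on the log2 scale (-0.07 ± 1.12) and in the means.

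**Figure D2:**
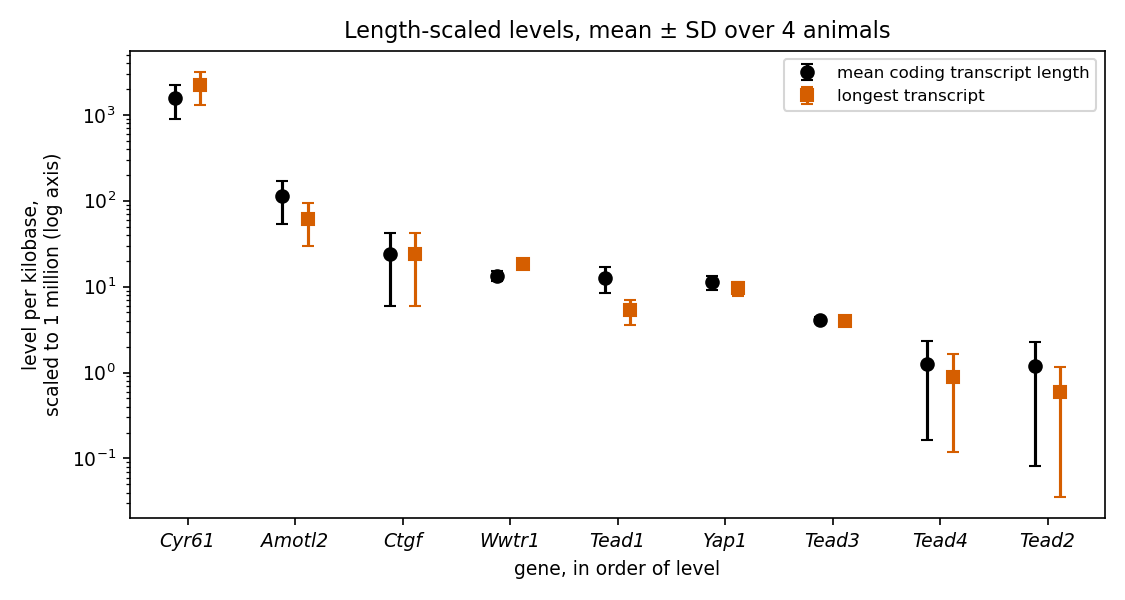
Level per kilobase scaled to a sum of 1000000 in each library, as mean ± SD over 4 animals on a log axis, with the mean coding transcript length (circles) and the longest annotated transcript (squares); Ankrd1, at 0, is not drawn. Cyr61 stands at 1560 ± 664 by the mean length, far above Amotl2 at 112 ± 58.5, and Tead1 moves from 12.6 to 5.29 with the longest transcript.

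The choice of length matters most for Tead1, whose coding transcripts average 2941 bases while the longest transcript has 9964. With the longest transcript of each gene the means were 2215 for Cyr61, 61.9 for Amotl2, 23.8 for Ctgf, 18.6 for Wwtr1, 9.58 for Yap1, 5.29 for Tead1 and 3.98 for Tead3. Tead1 then stood below Yap1, by 0.89 on the log2 scale, and Wwtr1 stood above Tead1 by 1.84, while the log2 difference of Yap1 from Wwtr1 was -0.96 ± 0.34. These differences exceeded their SD over animals, so the order of Wwtr1, Yap1 and Tead1 depends on the length used. Which transcript these cells use is not given by a table of genes.

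Yap1, on chr9:7931999-8004596 (GRCm38, minus strand), encodes the coactivator that gives the pathway its best known output. It was measured at 29.9, 28.4, 19.0 and 28.0 CPM in animals 1 to 4, a mean of 26.3 ± 4.94 CPM. Animal 3 was the low one and the other 3 lay close together. Without animal 3 the SD of log2 CPM fell from 0.294 to 0.049. Single libraries held 86.7 to 137 counts of Yap1, and an SD of 0.049 is not above counting error.

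Wwtr1, on chr3:57455649-57575910 (minus strand), encodes Taz, the paralogue of Yap. Its values were 45.7, 38.5, 44.4 and 53.4 CPM in animals 1 to 4, a mean of 45.5 ± 6.12 CPM. Animal 4 was highest and animal 2 lowest, with a ratio of 1.39 between them.

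Per length, the coactivators were close to each other. The log2 difference of Yap1 from Wwtr1 was -0.24 ± 0.34, with Yap1 higher in 1 of 4 animals (exact two-sided sign-flip permutation p = 0.375, adjusted over 13 pairs p = 0.406). Wwtr1 made up 51.1%, 48.1%, 61.5% and 56.6% of their summed per-length level in animals 1 to 4. With the longest transcripts the log2 difference was -0.96 and the mean share of Wwtr1 rose from 54.3% to 66.0%, and without animal 3 the difference was -0.10. The summed per-length level of the pair was 25.7, 23.8, 21.2 and 27.5 in animals 1 to 4, highest in animal 4 and lowest in animal 3.

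With 4 animals the smallest p that the sign-flip test allows is 0.13, which becomes 0.148 after adjustment over the 13 pairs compared, so no pair could pass 0.05. Pairs that had the same sign in all 4 animals reached that p, and for them the size and its SD carry the comparison. The 13 pairs were Yap1 with Wwtr1, the 6 pairs among Tead genes and the 6 among Ctgf, Cyr61, Ankrd1 and Amotl2.

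Tead1, on chr7:112679318-112906807 (plus strand), was the leading Tead gene per length by the mean coding length. Its values were 25.5, 21.7, 21.7 and 41.0 CPM in animals 1 to 4, a mean of 27.5 ± 9.17 CPM. Animal 4 stood above the other 3, and without it the SD of log2 CPM was 0.133 instead of 0.426.

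Tead3, on chr17:28331671-28350817 (minus strand), had the smallest spread of the members with counts. It was measured at 7.62, 7.36, 7.28 and 6.28 CPM, a mean of 7.13 ± 0.588 CPM, with animal 4 the lowest by a small margin. The SD of log2 CPM was 0.115, and 0.032 without animal 4. Single libraries held 25.7 to 34.8 counts of Tead3, and spreads this small are not above counting error. Animal 4 was thus the highest for Tead1 and the lowest for Tead3.

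Tead2, on chr7:45215753-45233644 (plus strand), and Tead4, on chr6:128224288-128300823 (minus strand), rested on few reads. Tead2 was measured at 0.250, 2.40, 0.557 and 0.931 CPM, which is 18.0 estimated counts in all, 10.5 of them in animal 2. Tead4 was measured at 1.15, 1.11, 0.243 and 3.16 CPM, which is 24.2 counts in all, highest in animal 4. Single libraries held 1.14 to 10.5 counts of Tead2 and 1.11 to 12.9 counts of Tead4, so the differences between animals rest on few reads. Without animal 2 the mean of Tead2 was 0.579 instead of 1.03 CPM, and without animal 4 that of Tead4 was 0.837 instead of 1.42 CPM.

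Tead1 exceeded Tead3 by 1.50 ± 0.53 on the log2 per-length scale (2.83-fold), Tead2 by 3.01 ± 0.97 and Tead4 by 3.09 ± 0.60, in 4 of 4 animals each (exact two-sided sign-flip permutation p = 0.13, adjusted p = 0.148 for each). Tead3 exceeded Tead4 by 1.59 ± 1.02 and Tead2 by 1.51 ± 0.86 in 4 of 4 animals, with the same p. The sizes against Tead2 and Tead4 depend on the added 0.5 CPM. Tead1 minus Tead2 was 2.55 with 1 CPM added and 3.61 with 0.1 CPM, and Tead1 minus Tead4 was 2.69 and 3.59. In the same way Tead2 minus Tead3 was -1.11 and -2.05, and Tead3 minus Tead4 was 1.25 and 2.03. Tead2 and Tead4 differed by 0.07 ± 1.12, higher in 2 of 4 animals (exact permutation p = 0.875). Of the summed per-length level of the 4 Tead genes, Tead1 made up 65.2 ± 6.78%, Tead3 22.6 ± 6.18%, Tead2 6.30 ± 6.10% and Tead4 5.88 ± 3.78%. With the longest transcripts the lead of Tead1 over Tead3 shrank to 0.29 ± 0.53, smaller than its SD, and the shares were 48.6% and 38.5%. Tead1 and Tead3 each stayed above Tead2 and Tead4 under either length, and with the longest the log2 difference of Tead2 from Tead3 was -2.48.

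**Figure D3:**
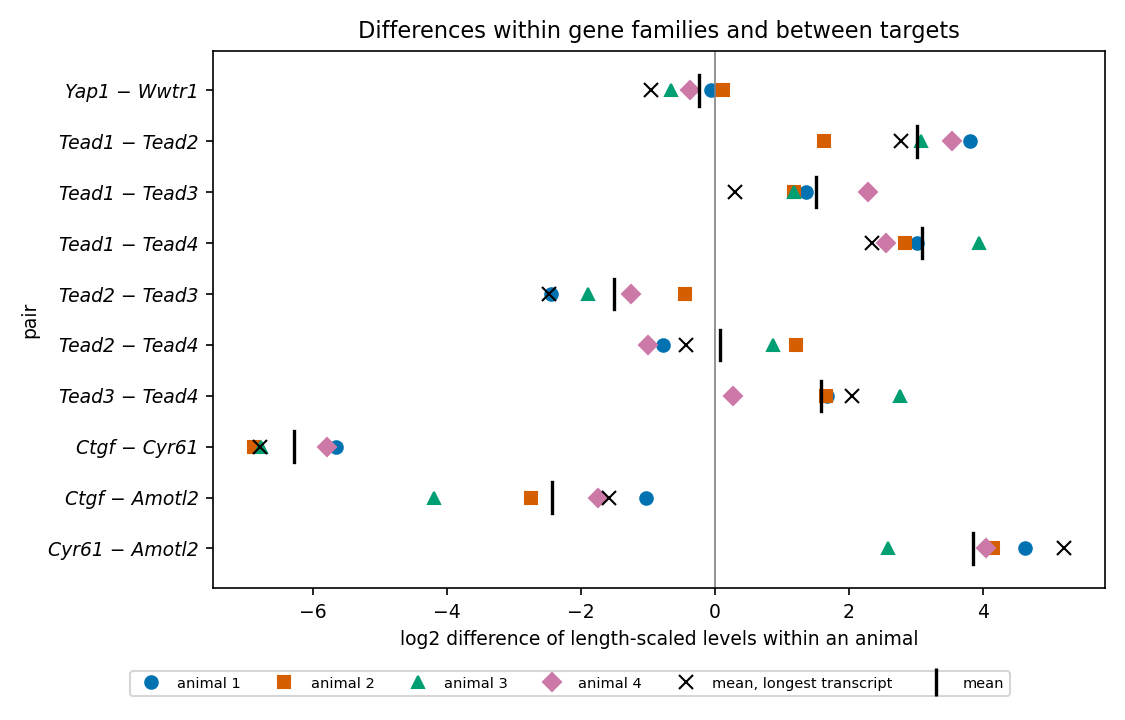
Log2 difference of per-length levels within each animal for the 10 pairs without Ankrd1, with the mean as a bar and the mean from longest transcripts as a cross. Ctgf lies below Cyr61 by 6.28 on average in 4 of 4 animals, while Yap1 minus Wwtr1 (-0.24) and Tead2 minus Tead4 (0.07) have animals on each side of 0.

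Cyr61 (named Ccn1 in the annotation), on chr3:145646976-145649981 (minus strand), encodes a secreted matricellular protein of the CCN family. It was measured at 3006, 1337, 1623 and 3397 CPM in animals 1 to 4, a mean of 2341 ± 1013 CPM. Animals 1 and 4 were high and animals 2 and 3 low, with a ratio of 2.54 between the highest and the lowest. By mean CPM it ranked 43 among all genes, between rank 26 in animal 4 and rank 81 in animal 2, and per length it ranked 88. Its level was close to that of the mesothelial markers Msln (2257 ± 393 CPM) and Upk1b (2225 ± 241 CPM), on a scale not divided by length.

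Ctgf (Ccn2 in the annotation), on chr10:24595442-24598683 (plus strand), encodes the closest relative of Cyr61 among the members. The 4 animals gave 50.8, 9.25, 12.2 and 52.4 CPM, a mean of 31.2 ± 23.6 CPM. Animals 1 and 4 were high and animals 2 and 3 low, as for Cyr61, and the ratio of highest to lowest was 5.67. Its exons share 665 bases, 23.2% of the total, with the opposite-strand gene Gm15270, and no source used here says whether the kit kept strand. Gm15270 was assigned 14 counts over all 4 animals, and reads of the shared part cannot be told apart without strand.

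Amotl2, on chr9:102716672-102733418 (plus strand), encodes an angiomotin-family scaffold that binds Yap and restrains it, and is itself a Yap target. The 4 animals gave 103, 63.8, 231 and 174 CPM, a mean of 143 ± 74.2 CPM. Animal 3 was highest and animal 2 lowest, with a ratio of 3.61, so the order of animals was not that of Cyr61 and Ctgf.

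Ankrd1, on chr19:36111961-36120099 (minus strand), encodes an ankyrin repeat protein of muscle nuclei and sarcomeres and is a widely used Yap reporter gene. It had 0 counts in animals 1, 2, 3 and 4, which allows up to 0.657, 0.686, 0.659 and 0.733 CPM in each and 0.171 CPM over the group. The limit is set at 3 counts and covers counting error only. Against that limit over the group, and per length, Cyr61 was at least 12947-fold higher, Amotl2 at least 936-fold, Ctgf at least 199-fold and Yap1 at least 93.6-fold. With longest transcripts the bound was 382 for Amotl2, 147 for Ctgf and 58.9 for Yap1.

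The targets with counts lay far apart per length. Ctgf stood below Cyr61 by 6.28 ± 0.64 on the log2 per-length scale (77.8-fold) and below Amotl2 by 2.43 ± 1.37, in 4 of 4 animals each. Cyr61 stood above Amotl2 by 3.85 ± 0.88 (14.4-fold), also in 4 of 4 animals. Each of these pairs gave the smallest p the design allows (exact two-sided sign-flip permutation p = 0.13, adjusted p = 0.148). The gap between Ctgf and Amotl2 was 1.58 with the longest transcripts.

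Among the members above 1 CPM, the targets had the largest spread between animals. The SD over animals of log2(CPM + 0.5) was 1.29 for Ctgf, 0.818 for Amotl2 and 0.659 for Cyr61, and 1.07%, 6.16% and 12.4% of the 8792 genes with a mean of at least 10 CPM had a larger SD. It was 0.426 for Tead1, 0.294 for Yap1 and 0.191 for Wwtr1, where 34.1%, 56.6% and 78.7% of those genes had a larger SD. The median SD of the 8792 genes was 0.327, so the SD of Wwtr1 lay below it, those of the targets above it and that of Yap1 near it. The SD of Yap1 was 0.355 with TMM library sizes, 0.345 without animal 2, 0.350 without animal 4 and 0.049 without animal 3. Relative to its own mean, Ctgf lay at 1.09, -1.31, -0.92 and 1.14 in animals 1 to 4 on the log2 scale, and Cyr61 at 0.47, -0.70, -0.42 and 0.65. Amotl2 lay at -0.30, -0.99, 0.85 and 0.45. Wwtr1, at 0.02, -0.23, -0.03 and 0.24, moved least of these.

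**Figure D4:**
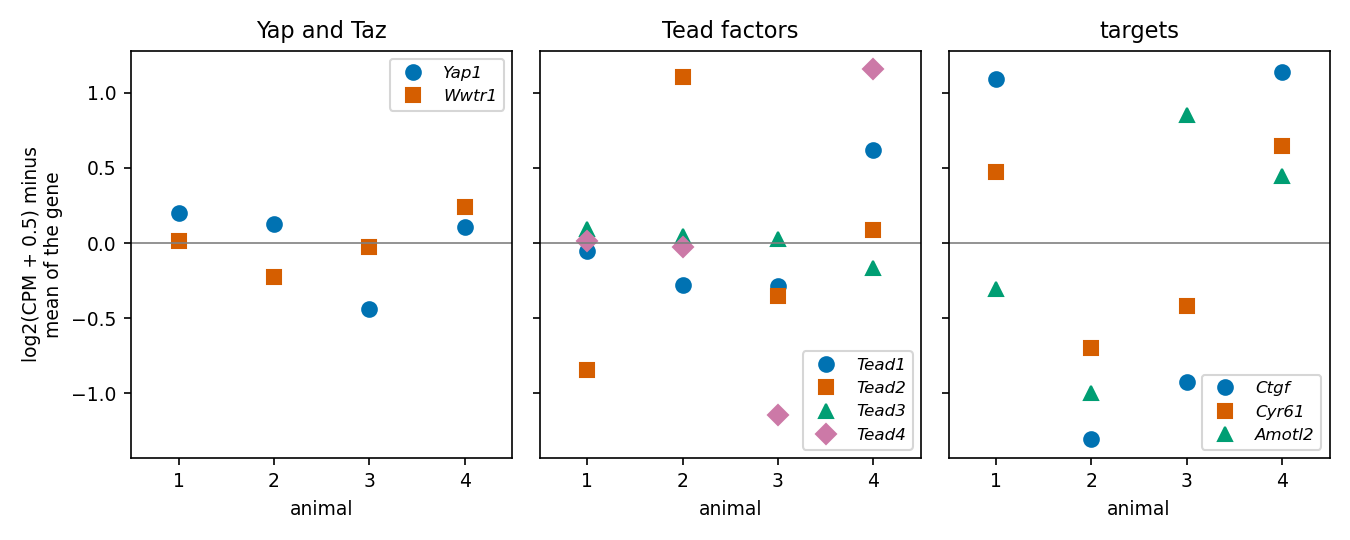
Log2(CPM + 0.5) of each gene minus its own mean over 4 animals, by animal, for the coactivators, the Tead genes and the targets with counts. Ctgf and Cyr61 lie above 0 in animals 1 and 4 and below 0 in animals 2 and 3, Amotl2 is highest in animal 3, and Wwtr1 stays between -0.23 and 0.24.

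Other measures also differed between these animals. The summed level of the fibroblast markers was 14037, 20940, 18172 and 14082 CPM in animals 1 to 4, higher in the 2 animals where Ctgf and Cyr61 were lower. Most of that sum was Dcn, at 10961, 15498, 13707 and 11391 CPM. Not every marker of the list had that order: Thy1 was lowest in animal 2 (31.2, 10.5, 30.4 and 33.8 CPM) and Lum lowest in animal 3 (87.4, 131, 37.3 and 48.5 CPM). The libraries of animals 1 and 4 also had the lowest chi-square per gene, 10.7 against 15.5 to 26.2 for the other 5 pairs. That measure covers genes with at least 10 counts in a pair, and depth also enters it. The summed mesothelial markers were 16720, 17934, 16001 and 16634 CPM in animals 1 to 4. Among them the keratin gene Krt19, at 1749, 3120, 3091 and 1239 CPM, was higher in animals 2 and 3, opposite to Ctgf and Cyr61. Wt1, Krt8, Lrrn4 and Bnc1 were also higher in animals 2 and 3. Upk3b (4448, 3920, 3990 and 4184 CPM), Upk1b and Krt18 were higher in animals 1 and 4. The other mesothelial markers had neither order. These orders use column totals, and TMM library sizes were 0.961, 1.01, 1.06 and 0.970 of the totals in animals 1 to 4. With TMM library sizes Lrrn4 lost its order, while Msln, Krt7 and Gpm6a were higher in animals 1 and 4. The library totals were 4569578, 4371817, 4554370 and 4090224 estimated counts. These genes were chosen for print after their values were seen, and the part of fibroblast RNA in the levels of Ctgf and Cyr61 was not tested.

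The counts of the pathway lists below stand against 24.7% of all genes above 1 CPM. Their medians stand against 35.9 CPM, the median over the 8792 genes with a mean of at least 10 CPM, and 0 over all genes. All 8 genes of the kinase core lay above 1 CPM, with a median of 23.3 CPM. Lats2, a kinase that phosphorylates Yap and whose gene is also a known Yap target, led the list at 99.9, 35.8, 78.1 and 98.4 CPM (78.1 ± 29.8), lowest in animal 2. Its scaffold partner Mob1a stood at 41.6 ± 4.33 CPM and the upstream kinase gene Stk4 at 26.5 ± 6.71 CPM. The adaptor gene Sav1 was the lowest of the list at 5.73 ± 1.63 CPM and still passed.

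Of 13 upstream polarity and kinase genes 12 passed, with a median of 31.5 CPM. Taok1, a kinase that acts upstream of the Mst and Lats kinases, stood at 152 ± 19.6 CPM, the polarity scaffold gene Mpp5 at 47.0 ± 22.0 CPM and the giant cadherin gene Fat1 at 42.1 ± 15.3 CPM. Fat4, a related cadherin, did not pass at 0.148 ± 0.195 CPM. Its ligand gene Dchs1 passed narrowly, at 0, 2.38, 7.83 and 1.49 CPM (adjusted p = 0.028, edgeR), with most of its level in animal 3. Without animal 3 (edgeR adjusted p = 0.985), and with voom weights in limma, it did not pass.

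Of 17 genes for binding and turnover of Yap and Taz 16 passed, with a median of 46.8 CPM. The highest were Ywhae at 1050 ± 84.0 CPM, Ywhaz at 503 ± 47.6 CPM and Ywhaq at 447 ± 57.2 CPM, whose proteins bind phosphorylated Yap and Taz among many other partners. The angiomotin genes were unequal: Amot did not pass at 0.264 ± 0.208 CPM, while Amotl1 stood at 190 ± 23.7 CPM and the target Amotl2 at 143 ± 74.2 CPM. Among Tead cofactors 2 of 4 passed. Vgll4, which competes with Yap for Tead, stood at 31.5 ± 9.90 CPM and Vgll3 at 20.8 ± 2.27 CPM, whereas Vgll1 and Vgll2 had no count.

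Of 18 other genes known as Yap and Taz targets 16 passed, with a median of 30.0 CPM. The highest were Ccdc80 at 2057 ± 308 CPM, a secreted matrix protein gene also abundant in mesenchymal cells, the RNA-binding protein gene Rbms3 at 114 ± 30.0 CPM, and Lats2, which stands on both lists, at 78.1 ± 29.8 CPM. Fjx1 (0.164 CPM) and Foxf2 (0.108 CPM) did not pass. The tissue factor gene F3 was measured at 68.4, 12.0, 48.0 and 125 CPM and Crim1 at 68.9, 33.2, 56.6 and 97.3 CPM. Both were highest in animal 4 and lowest in animal 2, as Cyr61 and Ctgf were, but animal 3 lay closer to animal 1. Ccdc80 (2206, 1732, 1879 and 2410 CPM), Lats2, Dock5 (30.3, 13.6, 17.5 and 24.7 CPM) and Asap1 (22.0, 18.3, 15.1 and 23.1 CPM) were also higher in animals 1 and 4. Other genes of the list had the opposite order and were higher in animals 2 and 3. These were Igfbp3 (1.05, 7.98, 8.31 and 1.19 CPM), Myof (53.1, 73.8, 80.8 and 51.4 CPM) and Axl (46.0, 59.6, 77.3 and 53.7 CPM). Arhgef17 (18.5, 21.8, 36.4 and 20.8 CPM) had that order by a narrow margin, and Fjx1 had it with almost no counts. The remaining genes had neither order in CPM. The values of these genes by animal were chosen for print after they were seen, and the list as a whole had no common order of animals.

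Cyr61 and Ctgf also respond to serum and to cell detachment through other factors, so immediate early genes and genes of Srf and actin were read beside them. All 12 immediate early genes passed, with a median of 590 CPM, led by Fos at 4548 ± 653 CPM, Zfp36 at 1631 ± 277 CPM and Egr1 at 1162 ± 219 CPM. Their summed level was 12320, 12440, 10892 and 12997 CPM in animals 1 to 4, a sum over genes with different orders of animals. Nr4a1 (890, 161, 168 and 462 CPM), Fos (4744, 4117, 3948 and 5382 CPM) and Myc (45.4, 28.7, 41.4 and 46.6 CPM) were higher in animals 1 and 4. Fosb (264, 416, 439 and 318 CPM) and Dusp1 (645, 926, 753 and 702 CPM) were higher in animals 2 and 3. So was Ier3 (378, 469, 380 and 359 CPM), by a narrow margin. With TMM library sizes this order held for Fosb but not for Dusp1 or Ier3, where animal 3 fell below animal 4. The other genes of the list had neither order. The values of these genes by animal were chosen for print after they were seen. Of 8 Srf and actin genes 7 passed, led by Tpm1 at 433 ± 110 CPM, Flna at 219 ± 90.4 CPM and Acta2 at 96.0 ± 42.8 CPM, and Cnn1 did not pass at 1.25 ± 1.53 CPM. The summed level of the 8 Srf and actin genes was 1025, 641, 930 and 800 CPM, lowest in animal 2, over genes with different orders. Tagln (43.1, 7.92, 9.27 and 14.3 CPM), Tpm1 and Vcl were higher in animals 1 and 4. Flna (169, 193, 353 and 159 CPM) and Srf were higher in animals 2 and 3. The other genes of that list had neither order. Acta2 and Cnn1 are also among the smooth muscle markers. The part of cell isolation in the levels of Cyr61 and Ctgf was not tested.

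**Figure D5:**
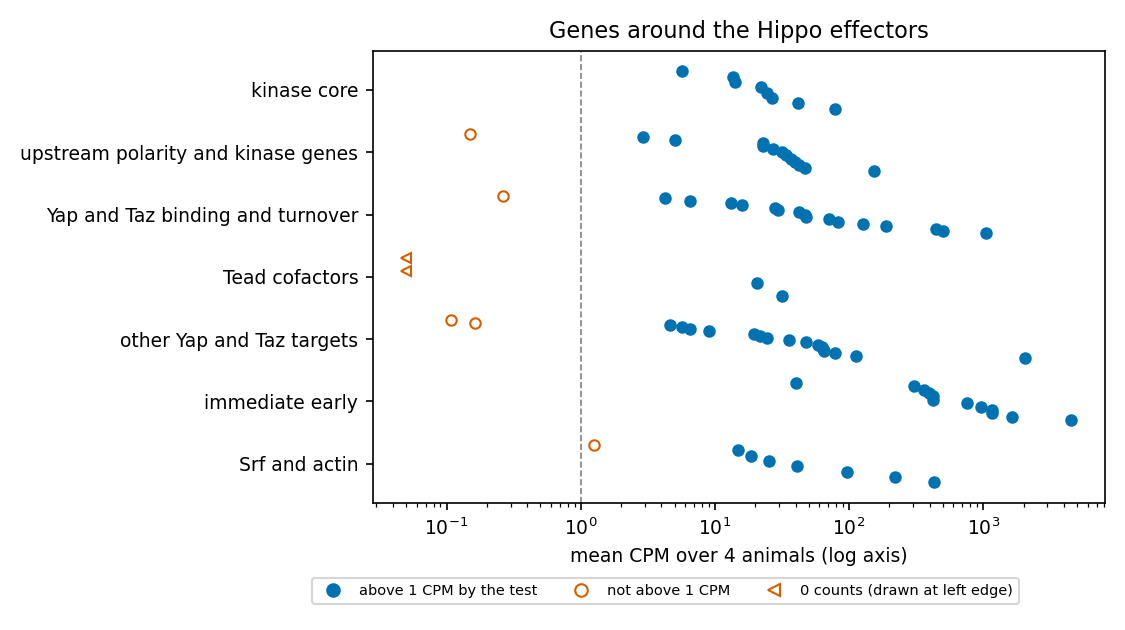
Mean CPM over 4 animals of each gene in the 7 pathway lists on a log axis, filled where the gene passed the edgeR test of a level over 1 CPM and open where it did not; 1 CPM is dashed and genes with no count are drawn at the left edge. All 8 kinase core genes and all 12 immediate early genes are filled, and Vgll1 and Vgll2 sit at the left edge.

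The genes whose profile over the 4 animals was most like that of a member were found by Euclidean distance between centred log2(CPM + 0.5) values among the 8792 genes with a mean of at least 10 CPM. For Yap1 they were Msln (distance 0.041; 2570, 2409, 1682 and 2369 CPM), Sirt5 (0.051) and Pmm2 (0.052), which were all lowest in animal 3 like Yap1. For Wwtr1 they were Rpl36a (0.034), Taok1 (0.036) and Tmem129 (0.049), with small differences between animals. For Ctgf, the target with the largest SD, they were A730046J19Rik (0.145; 92.7, 17.4, 20.1 and 94.6 CPM), Socs2 (0.226; 169, 25.7, 39.5 and 153 CPM) and Tsc22d3 (0.299; 3729, 577, 751 and 2916 CPM). In the same ranking from Ctgf, Cyr61 was 99th at a distance of 1.12 and Amotl2 was 4493rd at 2.38. With 4 animals and 8792 genes close profiles are plentiful, and these distances are a description.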

How the data were processed

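The authors deposited estimated counts for 48425 genes in 1 column per animal, 22936 of them with a value. Among the tools in the submitters' processing notes are limma 3.38.3, edgeR 3.24.3 and kallisto 0.43.1, and the build is GRCm38.p5; their roles, the step from transcripts to genes, the annotation and strand are not given in the sources used here. CPM were computed as value over column total times 1000000. For the level test, counts were rounded, scaled with TMM and fitted with edgeR 4.0.16 under R 4.3.3, and the statistic was computed from fitted and null deviances because the packaged test takes no design with an intercept only; it was tested on simulated data. DESeq2 1.42.0 and voom weights in limma 3.58.1 were alternatives, as were other scalings, a minimum of 10 counts, 5 CPM, other pseudocounts (0.1 and 1 CPM), other lengths and leaving out each animal; levels and spreads were also recomputed with TMM library sizes. Lengths come from GENCODE M21. Ctgf and Cyr61 were matched to Ccn2 and Ccn1 through RefSeq synonyms. Near-identical sequence was sought with BLAST 2.17.0 (at least 95% identity over 150 bases) and found only between Ctgf and Gm15270. Chi-square per gene between libraries was 10.7 to 26.2, far above sampling noise, so all 4 were kept; the study describes them as separate animals.

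All 10 members are named. From each pathway list the 3 genes with the highest mean CPM and, where 5 or fewer did not pass, each of those are named, along with genes discussed beside a member; a gene on 2 lists (Lats2) counts under both. Genes most like a member were named for Yap1, Wwtr1 and the target with the largest SD, 3 each. Members and lists were chosen with earlier results of these data known.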

Additional observations from a re-analysis of the deposited data

Results flagged for a closer look

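In 1 of 36 sets of 4 values examined, a single animal stood apart from the rest. The log2 per-length difference of Tead1 from Tead3 was 1.36, 1.17, 1.19 and 2.29 in animals 1 to 4, and the gap from animal 4 to the nearest other was 0.837 of the whole range, above Dixon's 95% critical value for 4 samples. Animal 4 had the highest Tead1 (41.0 CPM) and the lowest Tead3 (6.28 CPM). Chance alone marks about 1 in 20 such sets.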

How the results depend on the processing

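The number of genes above 1 CPM was 11957 and stayed between 9230 (level of 5 CPM) and 12200 (genes with at least 10 counts) in all 10 alternatives run. The member count was 7, and 6 at 5 CPM. Of 130 alternative list counts 7 moved by over 1.5 times, all in marker lists. The blood endothelial count of 2 was 1 at 5 CPM, 1 with voom weights and 1 to 2 when an animal was left out (1 without animal 4). The leukocyte count of 1 was 2 with the filter of at least 10 counts and 1 to 2 when an animal was left out (2 without animal 4). The skeletal and heart muscle count of 0 was 1 with that filter and 1 with voom weights. Of 80 alternative pair differences 5 changed sign, all for Tead2 minus Tead4: the main 0.07 became -0.020 with a pseudocount of 0.1 CPM, -0.43 with longest transcripts, -0.28 without division by length, and -0.30 to 0.43 when an animal was left out, among them -0.30 without animal 2 and -0.19 without animal 3. All 54 alternative member levels lay within 1 SD of the main value. For those that leave out an animal this was fixed in advance, since dropping 1 of 4 values cannot move a mean by 1 SD. Only the alternative scalings could have failed it. No paired analysis was possible because the series has 1 group. Depth limits Tead2 and Tead4, with 18.0 and 24.2 counts over all animals, and Ankrd1 with none.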
